A study of Rattus norvegicus with 17 samples.

Results

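Cxcl14 and 8 other chemokines that tissues make without an inflammatory trigger were followed in the colon mucosa of 17 rats. A probe counted as a member when its gene name in the scanner output matched 1 of the 9 names: Cxcl14, Cxcl12, Cxcl13, Cxcl16, Cx3cl1, Ccl21b, Ccl19, Ccl25 and Ccl28. By that rule 7 of the 9 genes had a probe, and 9 probes of 41012 were members, because Cxcl12 and Cx3cl1 had 2 probes each. Cxcl16 is not analysed here. No probe carries the name Cxcl13, but the probe named LOC498335 on the array holds the accession that RefSeq gives to Cxcl13, and its values stand beside those of the members. The set was chosen by the measured difference of Cxcl14, which was lower at high calcium, so the Cxcl14 difference between the diets is a description and carries no test.

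The study asked how dietary calcium bears on colitis. The rats were HLA-B27/β2-microglobulin transgenic females on an inbred Fisher 344 background, 8 to 10 weeks old at the start, and every animal carried the transgenes, which give these rats colitis. There was no rat without them. The high calcium group (8 rats) ate a purified Western-type diet with 120 mmol calcium per kg, the extra calcium replacing glucose, and the low calcium group (9 rats) ate the same diet with 30 mmol per kg. RNA from scrapings of each rat's colon mucosa was labelled with Cy5 and set on its own array against a Cy3-labelled pool of all animals, so each value is the log2 ratio of a rat to that pool. The labels give each rat a number of its own, and each was counted as a separate animal.

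Chemokines are small secreted proteins that steer cells through G protein-coupled receptors. Those made constantly in healthy tissue place lymphocytes, dendritic cells and plasma cells: Ccl19 and Ccl21 act through Ccr7 in the T cell zones of lymphoid tissue, Cxcl13 through Cxcr5 in B cell follicles, Ccl25 through Ccr9 and Ccl28 through Ccr10 at mucosal surfaces, Cxcl12 through Cxcr4 and the scavenging receptor Ackr3, and Cx3cl1 through Cx3cr1. Cxcl14 is made by epithelial and stromal cells and attracts monocytes and dendritic cells.

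The 250 bases before the RefSeq start of 4 of these genes are shown from build GRCr8. Cxcl14 is shown because the set was built around it, and Ccl19, Ccl21b and Cxcl13 because their values moved together from rat to rat, as described further on. RefSeq's table held a promoter for all 9 genes, and Ccl21b was found there under its synonym Ccl21. The windows are Cxcl14 at chr17:8322900-8323149 on the plus strand, Ccl19 at chr5:61761165-61761414, Ccl21b at chr5:61777516-61777765 and Cxcl13 at chr14:13917921-13918170, the last 3 on the minus strand. Capitals mark matches, on either strand, to 6 motifs: the TATA box TATAAA, the GC box of letters GGGCGG, the AP-1 site written TGANTCA, the CCAAT box, the interferon-stimulated element (GAAA, 2 bases of any kind, then GAAA again) and the NF-kB consensus.
Cxcl14: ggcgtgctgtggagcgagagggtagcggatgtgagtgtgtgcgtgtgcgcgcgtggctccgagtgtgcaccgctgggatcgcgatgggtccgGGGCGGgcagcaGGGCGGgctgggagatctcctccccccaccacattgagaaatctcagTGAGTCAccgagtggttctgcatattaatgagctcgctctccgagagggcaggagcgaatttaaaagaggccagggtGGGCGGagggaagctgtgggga
Ccl19: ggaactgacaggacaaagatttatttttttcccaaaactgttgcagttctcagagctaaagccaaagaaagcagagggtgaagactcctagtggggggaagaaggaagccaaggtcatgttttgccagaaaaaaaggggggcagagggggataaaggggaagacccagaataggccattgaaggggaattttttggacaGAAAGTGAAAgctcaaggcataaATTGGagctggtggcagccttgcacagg
Ccl21b: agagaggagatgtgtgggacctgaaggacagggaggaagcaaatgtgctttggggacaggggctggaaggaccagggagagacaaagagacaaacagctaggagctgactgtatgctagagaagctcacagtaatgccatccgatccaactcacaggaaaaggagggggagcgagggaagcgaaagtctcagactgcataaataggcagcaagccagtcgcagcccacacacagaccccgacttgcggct
Cxcl13: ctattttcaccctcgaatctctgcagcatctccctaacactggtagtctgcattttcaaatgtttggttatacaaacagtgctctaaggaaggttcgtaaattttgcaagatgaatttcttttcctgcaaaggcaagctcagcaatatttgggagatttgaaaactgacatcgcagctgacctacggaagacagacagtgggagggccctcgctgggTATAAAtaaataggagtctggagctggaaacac

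The Cxcl14 window holds 3 copies of GGGCGG, the GC box bound by Sp factors, and 1 TGAGTCA, the letters bound by AP-1, which starts 99 bases before the gene. Of all 33469 promoters in the table, 30.5% hold a GGGCGG and 6.34% a TGANTCA in the same window. Ccl19 has GAAAGTGAAA, the interferon-stimulated element that 3.41% of promoters hold, and an inverted CCAAT, found in 34.0%. Cxcl13 has a TATAAA that starts 33 bases before the gene, found in 12.9%. None of these letters is in the Ccl21b window, and the NF-kB consensus, held by 6.33% of promoters, is in none of the 4. A match is a description of the letters and shows no binding.

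All 9 member probes and the Cxcl13 probe were well above background in Cy5 on all 17 arrays and entered the fit of 27101 tested probes. An array's median Cy5 signal was 146.8 to 180.8 over a median background of 43.5 to 53.5, and the number of rats sets the precision. High calcium rat 3 and low calcium rat 16 stood apart: leaving out either or both took the number of tested probes past an adjusted p of 0.05 to 193, 38 and 328, against 0 with all rats. They are named for this effect, so values without them are descriptions and test nothing. Colon epithelium markers were all present, with 12 of 12 listed genes well above background on at least 8 arrays. In a bulk sample, fewer cells of a type and less RNA per cell cannot be told apart.

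Cxcl14 was lower in the rats fed high calcium. Its log2 ratio was -0.41 at the lowest, -0.06 at the median and 0.05 at the highest high calcium rat, against 0.02, 0.29 and 0.49 in low calcium rats. The groups overlapped by a single animal, since 8 of the 9 low calcium rats lay above every high calcium rat and low calcium rat 16, at 0.02, did not. High calcium rats averaged -0.10 ± 0.17 (SD, n = 8) and low calcium rats 0.27 ± 0.14 (SD, n = 9), a difference of -0.37 ± 0.07 (SE), or 1.29-fold lower. The 95% interval of the difference, given as a description, was -0.52 to -0.22. Within the 4 slides that held 2 rats of each diet the difference was -0.17, -0.32, -0.54 and -0.52, and the fifth slide held a single low calcium rat. Without rats 3 and 16 it was -0.42. The Cxcl14 probe lies at chr17:14291546-14291605 on the plus strand of rn3, the build of the array's own coordinates.

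**Figure D1:**
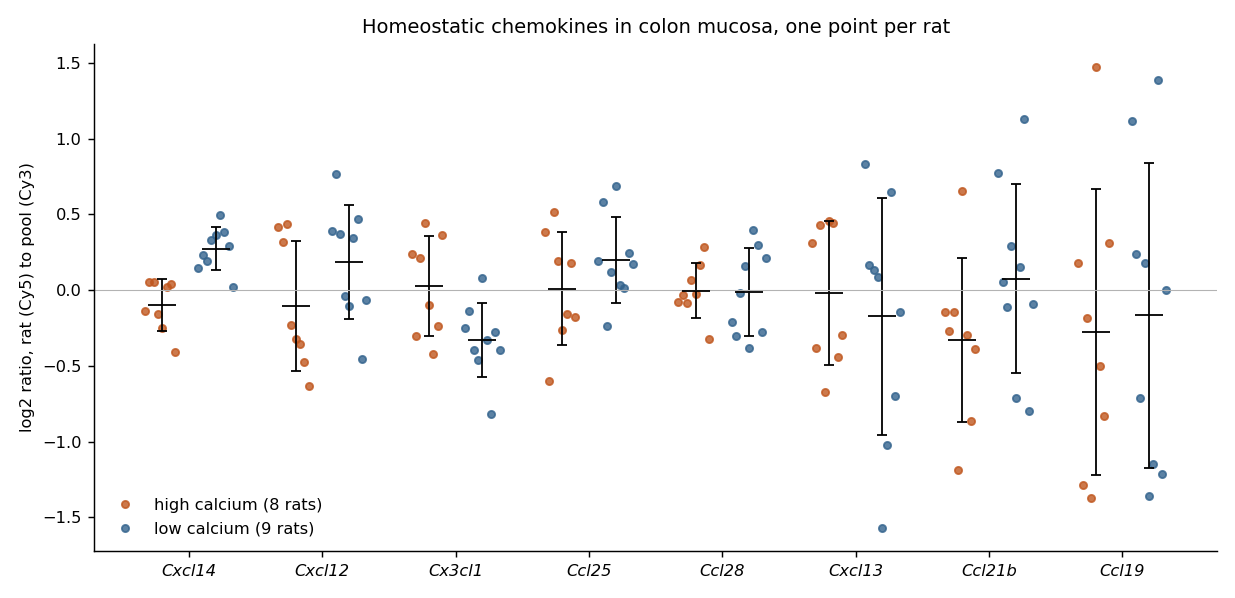
Log2 ratio of each rat (Cy5) to the pool of all animals (Cy3) for Cxcl14 and 7 other homeostatic chemokines, high calcium rats left and low calcium rats right of each gene. Each point is a rat, and bars show the mean and SD; a gene is shown by its brightest probe. Only for Cxcl14 do the groups nearly separate, and Cxcl13, Ccl21b and Ccl19 spread most within a diet.

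Among the other members none passed after adjustment over all 27101 probes. No probe of the whole array did either (0% of tested probes by limma with Benjamini-Hochberg adjustment), while 8.79% of all probes had an unadjusted p below 0.05, 4.84% lower and 3.95% higher. Of the 6 other members, 1 gene, Cx3cl1, was under that unadjusted limit by its brightest probe, and it was higher. All of them overlapped between the diets. On the whole array, 0.0295% of probes did not overlap.

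Cx3cl1, fractalkine, a membrane-bound chemokine that can be shed, had values of -0.42, 0.06 and 0.45 (lowest, median, highest) in high calcium rats and -0.82, -0.33 and 0.08 in low calcium rats. Of the high calcium rats 4 lay above all low calcium rats. High calcium rats averaged 0.02 ± 0.33 (SD, n = 8) and low calcium rats -0.33 ± 0.24 (SD, n = 9), a difference of 0.36 ± 0.12, 1.28-fold higher, with an unadjusted p of 0.0080 and an adjusted p of 0.36 in limma. Within slides it was 0.23, 0.76, -0.13 and 0.61, so the third slide ran the other way. The dimmer Cx3cl1 probe, 662 bases away on chr19 (10671855-10671914 and 10672517-10672576, minus strand, rn3), showed 0.19 ± 0.09 (adjusted p = 0.59). The dimmer probe had the same direction, with an interval of -0.01 to 0.38 that includes 0.

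Cxcl12, the stromal chemokine that holds leukocytes in tissue, had values of -0.63, -0.27 and 0.44 in high calcium rats and -0.45, 0.35 and 0.77 in low calcium rats at its brightest probe. The groups overlapped widely. High calcium rats averaged -0.10 ± 0.43 (SD, n = 8) and low calcium rats 0.19 ± 0.38 (SD, n = 9), and the difference of -0.29 ± 0.17 did not pass (adjusted p = 0.67). Its other probe, 5988 bases away on chr4, gave -0.34 ± 0.15, with an unadjusted p of 0.031 and an adjusted p of 0.51. The difference was smallest within the first slides (0.02 and -0.06) and larger in the others (-0.46 and -0.56).

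The Ccr7 ligands varied far more between rats than between diets. Ccl19 ran from -1.38 through a median of -0.34 to 1.47 in high calcium rats, and from -1.36 through 0.00 to 1.39 in low calcium rats. That is a 7.21-fold range within the high and a 6.72-fold range within the low calcium group. Its residual SD of 0.98 was exceeded by 0.0184% of all tested probes, whose median was 0.12. The difference of -0.11 ± 0.40 (adjusted p = 0.96, interval -0.95 to 0.73) left a wide range of possible sizes. Ccl21b ran from -1.19 through -0.28 to 0.65 in high calcium rats, and from -0.80 through 0.05 to 1.13 in low calcium rats. It differed by -0.40 ± 0.24 (adjusted p = 0.68, interval -0.91 to 0.10).

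Cxcl13, the B cell attractant, had values of -0.68, 0.01 and 0.45 in high calcium rats and -1.57, 0.09 and 0.84 in low calcium rats. Low calcium rat 7 was lowest. The difference was 0.15 ± 0.27 (adjusted p = 0.91), and it was -0.02 without that rat. Within slides it was 1.75 on the third slide and -0.05, -0.23 and -0.34 on the others. Ccl19 showed 1.74 on that slide, against -0.67, -0.51 and -0.35 on the others. Ccl21b showed 0.46 there, against -0.18, -0.75 and -0.79 on the others.

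The diets' values of the mucosal chemokines Ccl25 and Ccl28 overlapped throughout. Ccl25, which draws Ccr9-bearing T cells to the intestine, ran from -0.60 through 0.01 to 0.52 in high calcium rats, and from -0.24 through 0.17 to 0.69 in low calcium rats, a difference of -0.19 ± 0.14 (adjusted p = 0.75). Ccl28, which draws Ccr10-bearing plasma cells, ran from -0.33 through -0.03 to 0.29 in high calcium rats, and from -0.38 through -0.02 to 0.40 in low calcium rats. Its difference of 0.01 ± 0.11 had an interval of -0.21 to 0.23 (adjusted p = 0.99), the narrowest after Cxcl14 among the brightest probes of the members.

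**Figure D2:**
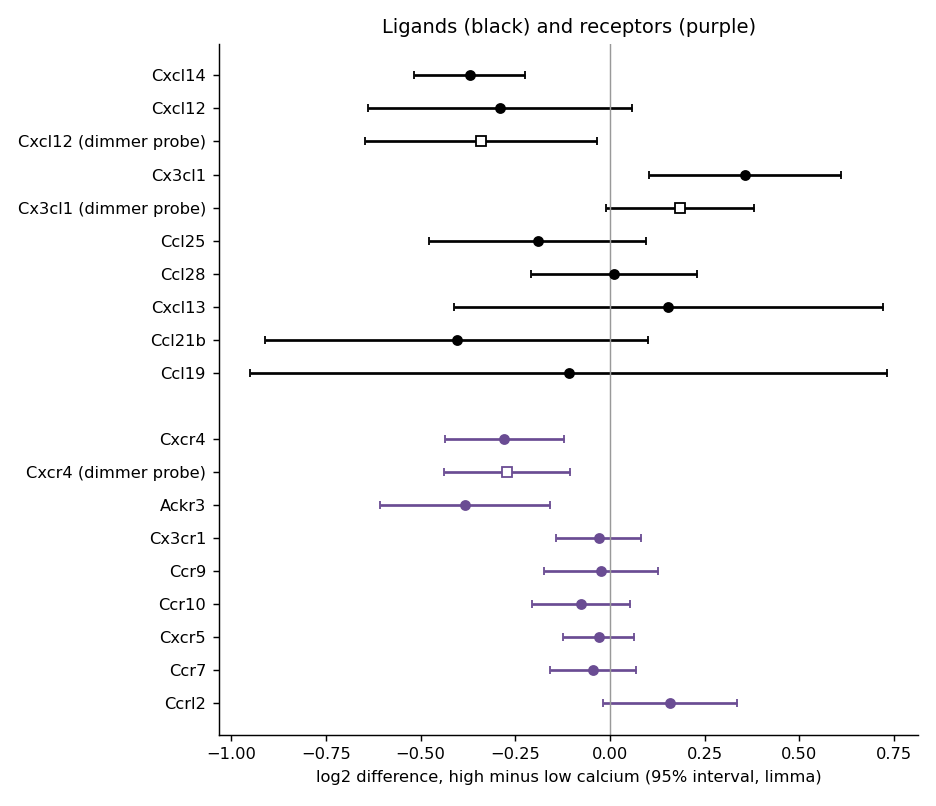
Log2 difference, high minus low calcium, for each probe of the chemokines (black) and of their receptors (purple), with 95% intervals of limma's fit. Open squares are the dimmer probes of a gene. Cxcr4 and Ackr3 have intervals entirely below 0, and so does the dimmer Cxcl12 probe, while the brighter Cx3cl1 probe lies entirely above 0. The Cxcl14 interval describes the difference by which the set was chosen and is no test.

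Of the 13 receptors listed, 10 had a probe and 8 were tested. Of these, 7 were lower and 1 was higher at high calcium, with a median difference of -0.04 against 0.01 over all tested probes. Over all 27101 tested probes, 12479 were lower. Adjusted over all probes 0 passed, and 2 had an unadjusted p below 0.05, both lower, where 4.84% of all probes were lower by that limit. Cxcr4, the Cxcl12 receptor, had values of -0.47, -0.19 and 0.00 in high calcium rats and -0.17, 0.05 and 0.30 in low calcium rats. It differed by -0.28 ± 0.08 (adjusted p = 0.21), and its second probe by -0.27 ± 0.08 (adjusted p = 0.26). Without rats 3 and 16 the difference was -0.34.

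Ackr3, which takes up Cxcl12 without signalling through G proteins, had values of -0.39, -0.03 and 0.21 in high calcium rats and 0.01, 0.26 and 0.84 in low calcium rats. The difference was -0.38 ± 0.11 (adjusted p = 0.24). Cxcr4 and Ackr3 were lower on all 4 slides with both diets: Cxcr4 by -0.18, -0.31, -0.20 and -0.32, Ackr3 by -0.54, -0.18, -0.34 and -0.32. Ccrl2, a chemokine-like receptor that binds chemerin, differed by 0.16 ± 0.09 (adjusted p = 0.63). The remaining receptors, Cxcr5, Cx3cr1, Ccr7, Ccr9 and Ccr10, differed by -0.08 to -0.02, with adjusted p of 0.77 to 0.95. Of these, Cxcr5, Ccr9 and Ccr10 were well above background on only 10, 11 and 14 arrays. With a normexp offset of 0 their differences were -0.06, -0.01 and -0.17. With processed signals they were 0.06, -0.17 and -0.51. So close to background, small differences cannot show that these receptors were alike in both diets. Ccr3 and Ackr2 were well above background on 0 and 1 arrays and were not tested, and Cxcr6, Ackr1 and Ackr4 are not analysed here.

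No gene that processes or displays chemokines passed the test. Of 9 tested sheddases, peptidases and proteoglycans, 5 were lower and 4 higher, with a median of -0.04, and 0 had an unadjusted p below 0.05. The nearest were the syndecans Sdc1 (-0.12 ± 0.06) and Sdc4 (0.08 ± 0.07), cell-surface proteoglycans, and the glypican Gpc1 (-0.07 ± 0.06). Among 14 tested genes of lymphoid tissue organisation, 10 were lower and 4 higher, 4 lower and 1 higher at an unadjusted p below 0.05, and 0 passed after adjustment. Over all 27101 tested probes, 12479 were lower and 14622 higher, 4.84% and 3.95% of all by that limit. The smallest p values belonged to Tnfsf11, the cytokine RANKL (-0.32 ± 0.09), and to the adhesion molecules Madcam1 (-0.34 ± 0.11) and Vcam1 (-0.26 ± 0.11), with adjusted p of 0.24, 0.31 and 0.49.

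Marker lists of the cells that such scrapings hold moved to different degrees with the diets. Of 10 tested fibroblast genes 9 were lower at high calcium, 8 of them at an unadjusted p below 0.05, with a median of -0.44 against 0.01 for all probes. Over all 27101 tested probes, 12479 were lower, and 4.84% of all were lower by that limit. Their mean per rat ran from -0.64 to 0.16 in high calcium rats and from -0.09 to 0.40 in low calcium rats. Decorin, lumican and the collagen chain Col1a1 led with -1.03 ± 0.22 (Dcn), -0.59 ± 0.13 (Lum) and -0.53 ± 0.12 (Col1a1), each at an adjusted p of 0.14. Col1a1 has 3 tested probes, and over the alternative settings with all rats its difference ran from -0.55 to -0.25.

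Macrophage and dendritic cell genes were lower in 8 of 10, 4 at an unadjusted p below 0.05, where 4.84% of all probes were lower by that limit. Their mean per rat was -0.36 to -0.03 in high calcium rats and -0.10 to 0.21 in low calcium rats. The smallest p values were those of Trem2, a lipid-sensing receptor (-0.94 ± 0.21), Itgam, an integrin chain (-0.26 ± 0.07), and the lysosomal protein Cd68 (-0.35 ± 0.10). Adjusted over all probes, 0 genes of either list passed with all rats. Without rats 3 and 16 the differences were -1.23 (Dcn), -0.70 (Lum), -0.65 (Col1a1), -1.12 (Trem2), -0.33 (Itgam) and -0.43 (Cd68). The part of these lists in the Cxcl14 difference was not tested.

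The B cell and follicular dendritic list had 1 of 9 genes lower, 8 higher and 0 below the unadjusted limit. Blk, Cd37 and Fcmr, all B cell genes, had 0.07 ± 0.09, 0.04 ± 0.06 and 0.13 ± 0.17. Its mean per rat ran from -0.28 to 0.28 in high calcium rats and from -0.42 to 0.22 in low calcium rats. Of the 5 tested genes of the plasma cell list 4 were lower, 3 of them at an unadjusted p below 0.05. They were led by the immunoglobulin joining chain Jchain (-0.37 ± 0.14), Tnfrsf17 (-0.35 ± 0.13) and Mzb1 (-0.25 ± 0.11). The fifth gene of that list, Pigr, is the epithelium's own receptor that carries IgA across it. Pigr was higher at an unadjusted p below 0.05 (0.21 ± 0.10, adjusted p = 0.56). Of 9 T cell genes 7 were lower and 1, Cd2, was below the unadjusted limit (-0.25 ± 0.08), ahead of Cd3g (-0.14 ± 0.07) and Cd5 (-0.11 ± 0.06). Of all tested probes 8.79% were below that limit, 4.84% lower and 3.95% higher, so 1 of 9 T cell genes is near the background. Over all 27101 tested probes, 12479 were lower and 14622 higher.

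Endothelial genes were lower in 4 of 5 tested. Vwf (-0.28 ± 0.08) and Pdpn (-0.11 ± 0.05) were below the unadjusted limit, and Kdr had -0.14 ± 0.10. Over all 27101 tested probes, 12479 were lower and 14622 higher, 4.84% and 3.95% of all by that limit. Without rats 3 and 16 the Vwf difference was -0.34. Smooth muscle genes split evenly, 3 lower and 3 higher, with Smtn higher (0.13 ± 0.05) and Tagln lower (-0.31 ± 0.14) at an unadjusted p below 0.05 and Des at -0.14 ± 0.11. Epithelial genes were higher in 9 of 12 and 0 were below the unadjusted limit, with Krt20 at 0.17 ± 0.11, Cdh1 at 0.11 ± 0.07 and Slc26a3 at 0.30 ± 0.23. After adjustment 0 genes of any of these lists passed with all rats.

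The spread between rats of the same diet, which the Cxcl14 rule did not use, showed which chemokines moved together. These relations, and those with list means further on, were added after seeing the data. The members and lists were chosen with earlier results of these data known. Their p values therefore do not test a hypothesis set beforehand. Each diet's mean was subtracted from its rats, and correlations over the 17 rats were tested by two-sided permutation within diets. Of the 28 pairs of the 7 members and Cxcl13, 4 passed after Benjamini-Hochberg adjustment, 2 of them with Cxcl13. The 3 positive ones joined the lymphoid chemokines. Ccl19 and Ccl21b, whose probes lie 17392 bases apart on chr5 of rn3, had r = 0.86 and rho = 0.77 (permutation p = 3e-05, adjusted p = 0.00084). Within the high calcium rats r was 0.83 and within the low calcium rats 0.89, and without the 2 rats farthest from the median of Ccl21b it was 0.80.

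Cxcl13 followed both. With Ccl19 it had r = 0.80 and rho = 0.82 (permutation p = 0.00015, adjusted p = 0.0021), and with Ccl21b r = 0.77 and rho = 0.73 (permutation p = 0.00048, adjusted p = 0.0045). Without the 2 rats farthest from the median of Cxcl13, rats 7 and 8 of the low calcium group, these were 0.77 and 0.86. With slide means removed as well, the 3 pairs had r of 0.82 to 0.87, and slides hold too few rats of a diet for values within them. The fourth pair, Cx3cl1 and Ccl28, ran in opposite directions (r = -0.64, rho = -0.65, permutation p = 0.0025, adjusted p = 0.018), and with each array centred on its median in place of loess the sign turned (r = 0.71, adjusted p = 0.058). Its call was also lost with Cy5 alone (adjusted p = 0.074), the smooth muscle list as a covariate (0.12), the mean of all tested probes of a gene (0.11) and without low calcium rat 7 (0.072). No relation of Cxcl14 with another member passed (adjusted p of 0.27 to 0.89).

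**Figure D3:**
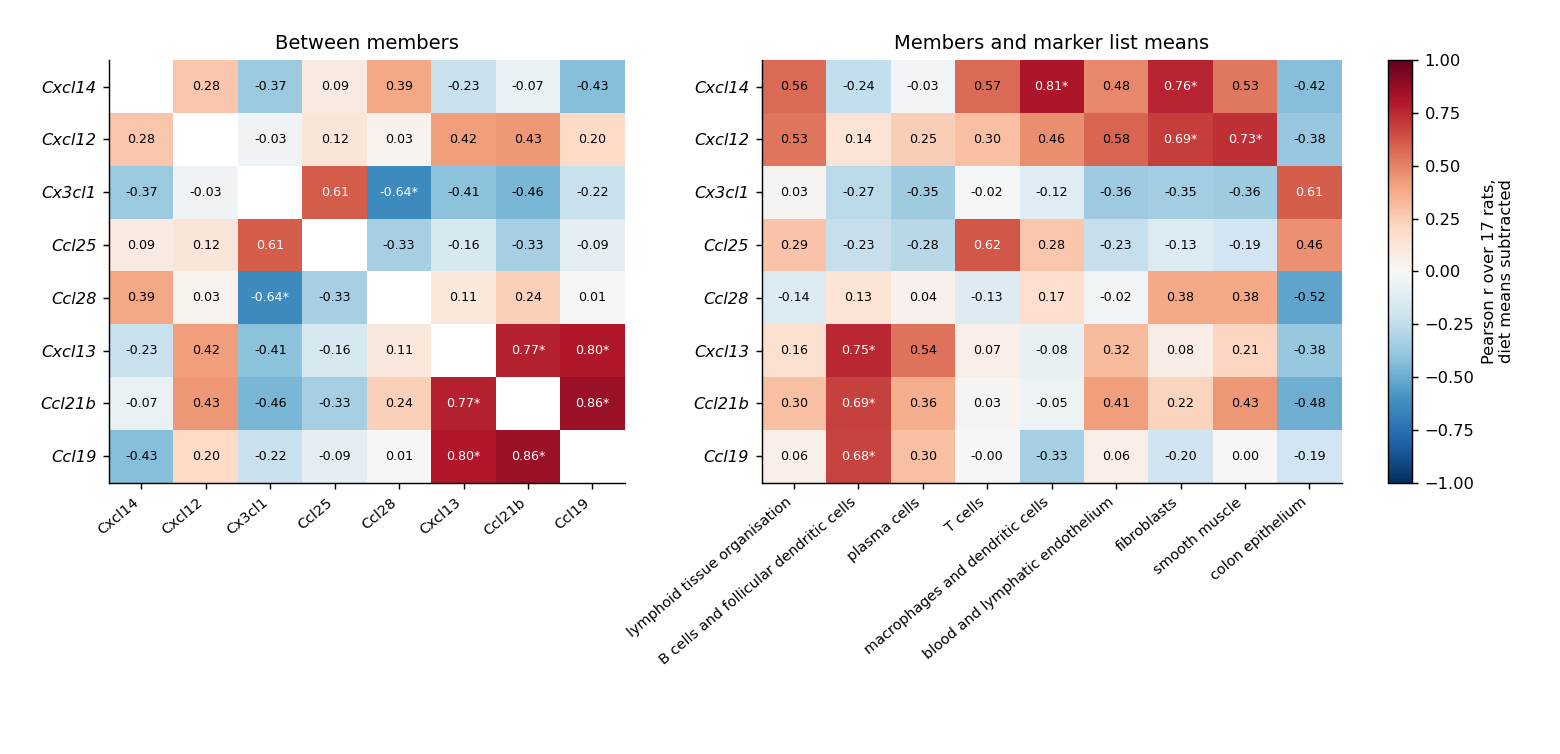
Pearson r over 17 rats after subtracting each diet's mean, between pairs of the chemokines (left) and between each chemokine and the mean of 9 marker lists (right). Stars mark an adjusted p below 0.05 within each family of 28 and 72 relations. Ccl19, Ccl21b and Cxcl13 form a positive block with the B cell list, and Cxcl14 has its strongest values with the macrophage and fibroblast lists.

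Between these 8 genes and the means of 9 marker lists, 7 of 72 relations passed by Pearson's r, and all 7 were positive. By Spearman's rho, 0 of the 72 passed, the lowest adjusted p being 0.055. Cxcl14 moved with the macrophage and dendritic cell list (r = 0.81, rho = 0.75, permutation p = 0.00031, adjusted p = 0.019) and with the fibroblast list (r = 0.76, rho = 0.73, permutation p = 0.00078, adjusted p = 0.019). Without its 2 farthest rats, rat 18 of the high and rat 8 of the low calcium group, these were 0.64 and 0.62. With slide means removed they were 0.87 and 0.89. The macrophage and dendritic cell call was lost with processed signals (r = 0.71, adjusted p = 0.060) and Cy5 alone (0.71, 0.054). The fibroblast call was lost with processed signals (0.65, 0.067), Cy5 alone (0.64, 0.11) and the series matrix (0.62, 0.10).

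Cxcl13, Ccl21b and Ccl19 moved with the B cell and follicular dendritic cell list, with r of 0.75, 0.69 and 0.68 and adjusted p of 0.019, 0.036 and 0.036. Over 29 alternative settings these calls were lost in 5, 14 and 11. The Ccl21b call was lost without background correction (r = 0.64, adjusted p = 0.060) and with processed signals (0.67, 0.067). It was also lost with Cy5 alone (0.65, 0.067), the series matrix (0.66, 0.069) and in settings that left out rats. Cxcl12 moved with the fibroblast (r = 0.69, adjusted p = 0.036) and smooth muscle lists (r = 0.73, adjusted p = 0.036). With the smooth muscle list mean as a covariate, its r with the fibroblast list was 0.21 (adjusted p = 0.76). These 7 calls are close to the limit. Leaving out high calcium rat 13 or 18 or low calcium rat 16, each alone, took their number to 0, with r for the same relations of 0.63 to 0.80.

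**Figure D4:**
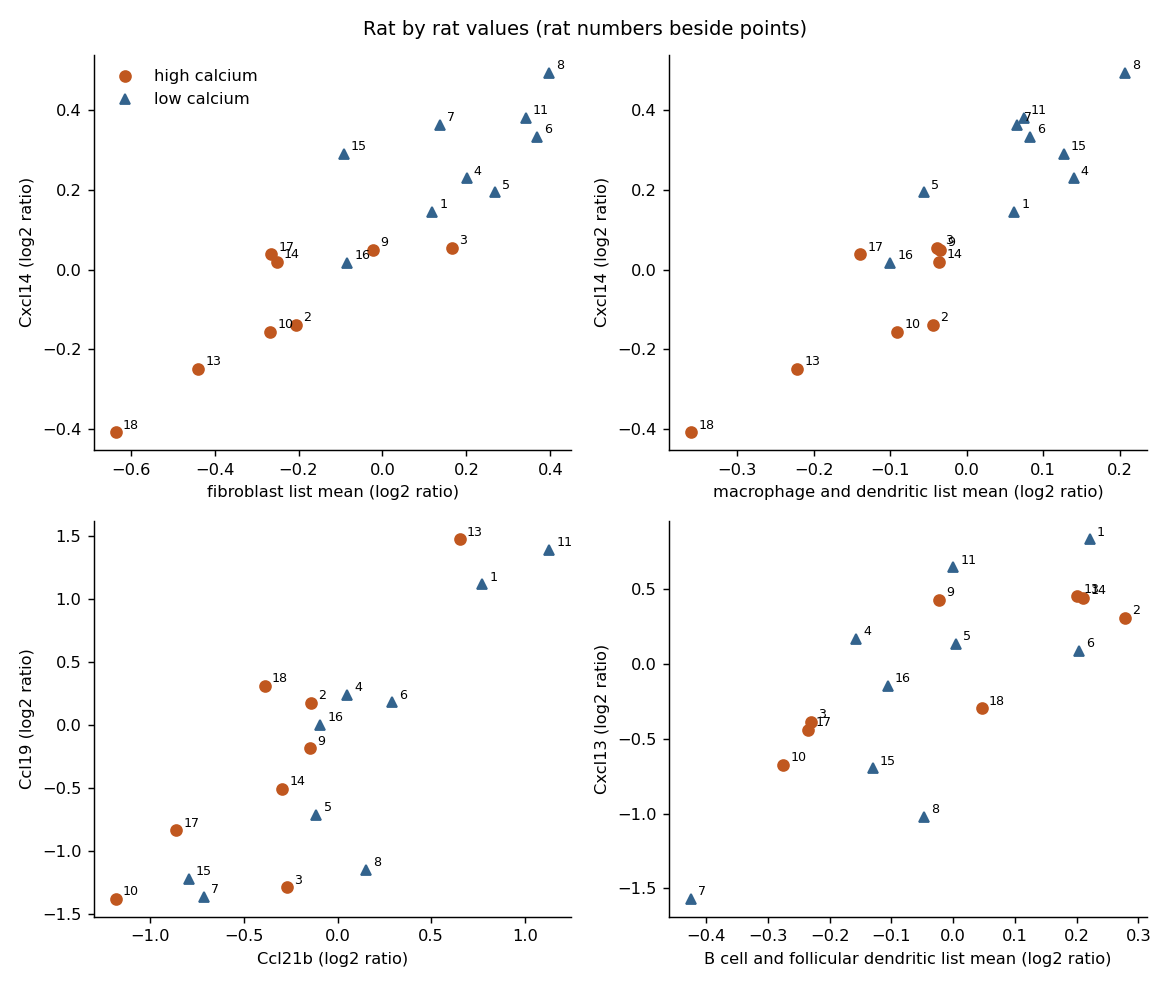
Log2 ratios of each rat, with rat numbers, for Cxcl14 against the mean of the fibroblast list and of the macrophage and dendritic cell list, Ccl19 against Ccl21b, and Cxcl13 against the B cell and follicular dendritic cell list. Circles are high calcium and triangles low calcium rats. In the upper panels the diets also differ in level, while in the lower panels they are mixed along the same slope.

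Of 8 ligand and receptor pairs 0 passed. The nearest were Cxcl12 with Cxcr4 (r = 0.61, rho = 0.63, permutation p = 0.015, adjusted p = 0.059) and Cxcl13 with Cxcr5 (r = 0.62, rho = 0.46, permutation p = 0.011, adjusted p = 0.059). The other 6 had adjusted p of 0.37 to 0.73. Both nearest pairs passed without low calcium rat 5, with adjusted p just under the limit (0.0499 and 0.0495). Over all settings that left out rats, adjusted p ran from 0.0499 to 0.20 and from 0.041 to 0.27. Without the 2 rats farthest from the ligand's median, r fell to 0.44 and 0.52. Cxcr5, Ccr9 and Ccr10 were well above background on only 10, 11 and 14 of the 17 arrays.

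The genes most like each chemokine within a diet were taken among 11531 named genes by r over 17 rats, as a description. For Cxcl14 they were Hsd11b1, the enzyme that regenerates active glucocorticoid (r = 0.90), Gpnmb, a macrophage glycoprotein (0.89), Pla1a, a phospholipase (0.89), and the actin-severing Scin (0.88). Next came the tetraspanin Tspan4 (0.88), Srpx2 (0.87), the integrin-binding Itgb1bp1 (0.87) and the hexokinase Hk3 (0.86). Tspan4 fell to 0.24 and Itgb1bp1 to 0.49 when the Cy5 channel was used alone. Hsd11b1 differed between the diets by -0.90 ± 0.18 and Gpnmb by -0.72 ± 0.16, while Scin differed by -0.02 ± 0.06.

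For Ccl21b the nearest gene was Glycam1, an L-selectin ligand of high endothelial venules (r = 0.87), followed by Ccl19 (0.86) and A2m (0.84). For Ccl19 they were Ccl21b (0.86), Glycam1 (0.81) and Entrep3 (0.81). For Cxcl13 they were Cd83 (0.87), the complement receptor Cr2 (0.81) and the B cell receptor chain Cd79b (0.81), of which the last 2 stand in the B cell list and Cd83 in the macrophage and dendritic cell list. Cxcl12 was nearest to the leptin receptor Lepr (0.91), Gpbp1 (0.91) and Nsrp1 (0.90).

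Cx3cl1 was nearest to Acadl, an enzyme of fatty acid oxidation (0.89), Itm2b (0.89) and the flippase Atp8b1 (0.88). Ccl28 was nearest to Cdc123 (0.92), the protein kinase A subunit Prkacb (0.89) and Plpbp (0.89). For Ccl25 all 3 were genes of mast cells: Ms4a2, a chain of the IgE receptor (0.89), and the proteases Mcpt1l3 (0.89) and Mcpt8l2 (0.88). Those 3 differed between the diets by 0.04 to 0.07.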

How the data were processed

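The deposited scanner files hold intensities of both dyes per spot. Per the file headers the software was Agilent Feature Extraction 9.5.1.1, and the submitters' processing notes give 9.5. The deposited series matrix holds log2 values made by steps not given in the sources used here. It followed the log2 ratio (r = 0.980 across genes and arrays after centring), its array medians were all 8.76, its offset stays unknown, and it was an alternative only.

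With limma 3.58.1 (R 4.3.3), background was corrected by normexp (offset 50) and arrays were normalised by loess, giving weight 0 to controls and flagged spots. Flagged values were set to missing, and 43379 spots were averaged to 41012 probes. The filter kept 27101 probes that were well above background in Cy5 on 8 or more arrays. Diets were compared with lmFit and eBayes, adjusted by Benjamini-Hochberg over all tested probes, with a threshold of 0.05. The brightest tested probe stands for a gene, except where a second is named. Names were updated through RefSeq's GRCr8 table (10735 probes through an accession, 5577 a symbol, 3730 a synonym), while 20970 probes stayed under the design's name. Replicates are rats, no array had its dyes swapped, and 0 columns of the matrix were unused.

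Relations within diets used 100000 permutations, where the smallest p possible is 1e-05. The members, lists and pairs were chosen with earlier results of these data known, and the relations among members and with list means were added after seeing the data. Named genes are all members and receptors, the 8 genes most like Cxcl14 and 3 most like each other member by within-diet r, leaving out accessions and uncharacterised loci, and up to 3 genes per other list with the smallest unadjusted p. The fit was tested on simulated data. Alternatives to background correction, normalisation, filter, variance model, slide, weights, covariate and probe rule, and leaving out each rat, were run.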

Additional observations from a re-analysis of the deposited data

Results flagged for a closer look

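In 2 of 38 checks (19 probes in 2 diets each) a rat stood far from the others of its diet, near the 1 in 20 that chance gives. Both times it was low calcium rat 5. Its Ccr10 log2 ratio was 0.30, and the next rat had 0.05. Its Ccr7 log2 ratio was -0.20, and the next rat had -0.02.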

How the results depend on the processing

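Over 31 alternative settings the Cxcl14 difference stayed between -0.42 and -0.32. Of 2812 values, 2623 were labelled as unchanged. For list medians that label allowed small changes of sign, which are among the values below. The share of probes under the unadjusted limit that were lower was also labelled unchanged, and ran from 46.2% to 63.3%. No paired analysis was possible because the diets share no replicate numbers. Differences that changed sign had an adjusted p of 0.87 to 0.99 with the reported settings: Cxcr5 to 0.025 without background correction and 0.061 with processed signals, Cd37 to -0.025 with Cy5 alone, Ccl19 to 0.051 and Ccl28 to -0.014 with slide as a block, and Cxcl13 to -0.0095, Ccl28 to -0.084 and Ccr9 to 0.0080 with array weights. Of the relations, Cx3cl1 with Cx3cr1 became -0.14 (no background correction), -0.098 (processed signals) and -0.0088 (smooth muscle covariate), Ccl25 with Ccr9 -0.068 (processed signals) and -0.35 (median centring), Ccl28 with Ccr10 -0.23 and Cx3cl1 with Ccl28 0.71 (median centring), and Cxcl12 with the smooth muscle list -0.17 once that list was the covariate. The causes were not tested, except that the covariate removes its own list.

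The 7 list relations numbered 4 (no background correction), 2 (processed signals), 41 (median centring), 2 (Cy5 alone), 3 (series matrix) and 12 (slide as a block). The 4 member relations numbered 12 with median centring. Ligand and receptor relations past the threshold numbered 1 with median centring and 2 with the mean of all probes of a gene, against 0. Members other than Cxcl14 under an unadjusted p of 0.05 numbered 0 with median centring and 3 with array weights, against 1, and probes 780 and 3790, against 2382. With the smooth muscle covariate, 35 probes and 4 list genes passed after adjustment. List medians moved to -0.15, -0.14 and -0.11 for receptors (processed signals, median centring, series matrix), -0.45 for endothelium (processed signals) and 0.054 for processing genes (median centring). The smooth muscle median became 0.027 with its own list as covariate. The processing genes' median was also above 0 with Cy5 alone, the series matrix, the mean of all probes and without low calcium rat 4 (0.017), and the B cell median was -0.0095 without low calcium rat 7.

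Leaving out rats gave Ccl19 -0.36 to 0.085, Ccl28 -0.036 to 0.062, Cxcl13 -0.021 to 0.28, Ccr9 -0.061 to 0.024, Blk -0.0091 to 0.11 and Cx3cl1 with Cx3cr1 -0.067 to 0.26. List relations numbered 0 to 9, ligand and receptor relations 0 to 2, members under the unadjusted limit 1 to 3, probes past the adjusted threshold 0 to 328, list genes 0 to 11 and probes under the unadjusted limit 1589 to 3084. Those above 0 after adjustment came without rat 3 (193 probes, 8 list genes), without rat 16 (38 and 2) and without both (328 and 11).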
